A study of Mus musculus with 144 samples.

Results

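Isolated polyadenylation sites are positions where liver transcripts end and gain a poly(A) tail with no other such position nearby. They were taken from the authors' filtered list as sites whose midpoint lay more than 20 kb from the midpoint of every other listed site on the same chromosome and strand. The rule used distances only and no read count, and it found 2835 sites among 29199, or 9.71%. Reads at these sites were counted with QuantSeq, a 3′ end method that sequences the stretch beside the poly(A) tail, in livers of male C57BL/6J mice under a cycle of 12 h light and 12 h dark, fed ad libitum. Wild-type mice gave 3 RNA pools (total, nuclear and polysomal), and total RNA also came from Bmal1-/- mice, mutants of the core clock factor BMAL1. Each of the 4 series held 36 libraries, 6 for every zeitgeber time (ZT, counted in hours from lights on) of ZT2, 6, 10, 14, 18 and 22. Nuclei were pelleted through a sucrose cushion, and polysomes were separated on a sucrose gradient from tissue crushed in cycloheximide. The submitters' processing notes name mm10 and GRCm38.p5, and site positions are given on that build. The altered part of the Bmal1 allele and which libraries came from the same liver are not given in the sources used here, so p-values measure only the spread between libraries, which may be technical.

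Most mammalian transcripts are cut downstream of a poly(A) signal by the cleavage and polyadenylation machinery, and many genes hold several alternative sites. Sites at the end of the gene give the full-length mRNA, while sites inside introns give shortened transcripts. An oligo(dT) primer can also bind runs of A inside a transcript, in unspliced introns in particular. In liver, the CLOCK and BMAL1 heterodimer binds E-boxes in promoters and drives genes with a 24 h rhythm, among them its own repressors.

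The sequence at the sites themselves was not analysed here. Promoters were read from RefSeq (GRCm38.p6) for the genes whose isolated sites had strong rhythms, since the results on rhythm turn on them. The 250 bases before the annotated start were searched on both strands for the E-box CACGTG, the D-boxes TTATGTAA and TTACGTAA, the ROR element core TAGGTCA and the TATA box TATAAA. Capitals mark the match, and no promoter printed held a second one. Cry1 and Fkbp5 held an E-box, Nfil3 a ROR element core and Tubb2a a TATA box.
Cry1, chr10:85185055-85185304, minus strand: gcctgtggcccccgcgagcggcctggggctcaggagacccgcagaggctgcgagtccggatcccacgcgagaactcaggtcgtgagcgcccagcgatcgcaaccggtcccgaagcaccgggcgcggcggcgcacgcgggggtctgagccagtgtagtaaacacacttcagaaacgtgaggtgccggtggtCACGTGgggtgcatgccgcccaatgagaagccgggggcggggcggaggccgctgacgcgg
Fkbp5, chr17:28486150-28486399, minus strand: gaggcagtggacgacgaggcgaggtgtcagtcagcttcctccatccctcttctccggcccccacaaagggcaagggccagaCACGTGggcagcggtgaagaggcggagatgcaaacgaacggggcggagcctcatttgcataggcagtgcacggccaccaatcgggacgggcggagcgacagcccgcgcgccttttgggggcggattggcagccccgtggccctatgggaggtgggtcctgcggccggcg
Nfil3, chr13:52981040-52981289, minus strand: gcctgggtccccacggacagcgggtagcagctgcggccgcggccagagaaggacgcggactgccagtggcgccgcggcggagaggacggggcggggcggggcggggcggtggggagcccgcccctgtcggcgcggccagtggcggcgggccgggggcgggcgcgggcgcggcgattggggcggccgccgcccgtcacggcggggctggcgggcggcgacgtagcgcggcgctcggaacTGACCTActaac
Tubb2a, chr13:34078009-34078258, minus strand: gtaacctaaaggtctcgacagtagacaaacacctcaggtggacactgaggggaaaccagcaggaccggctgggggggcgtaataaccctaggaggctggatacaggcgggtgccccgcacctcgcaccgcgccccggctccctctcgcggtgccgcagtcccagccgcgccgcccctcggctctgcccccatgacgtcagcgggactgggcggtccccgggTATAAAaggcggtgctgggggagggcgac
The E-box of Cry1 began 60 bases before the start and that of Fkbp5 169 bases before it. The match in Nfil3, read on the opposite strand as TGACCTA, began 12 bases and the match in Tubb2a 29 bases before the start. None of these motifs was in this window of Rgs16, Thrsp, Depp1, Angptl8, Calcoco1, Plk3, Ddit4, Denn2b or Blcap. Cyp17a1, also among the named rhythms, is not among the promoters listed. The E-box was in 6.02% of 32851 promoters of all genes. It was in 7.99% of 1941 promoters found for 1491 of 1957 genes with a tested isolated site. For genes whose isolated site was called rhythmic in total RNA it was in 9.46% of 317 promoters, which covered 232 of 277 genes. The other motifs did not all rise in this order. In the same order the TATA box was in 12.4%, 6.65% and 7.57%, and the ROR core in 2.23%, 1.65% and 3.47%. The D-box TTATGTAA was in 0.819%, 0.567% and 1.26%, and TTACGTAA in 0.113%, 0.155% and 0%. These shares describe letters in the windows and say nothing of binding.

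Libraries held 1404964 to 12217394 counts over the sites, with medians of 6072628.5 in total RNA, 3447498 in nuclear RNA, 4221974 in polysomal RNA and 6260521.5 in Bmal1-/- RNA. Of 360 pairs of libraries within groups none agreed within sampling noise. The hepatocyte markers Alb, Apoa1, Ttr, Serpina1c, Cps1 and Hnf4a summed to medians of 78843, 50111, 37485 and 61859 CPM (counts scaled to a fixed library total) in the same order. Summed markers of blood cells had a median of 8900 CPM in polysomal RNA against 2629 in total RNA, and their part in the results was not tested. The Arntl (Bmal1) gene had 5.17 to 18.6 CPM in Bmal1-/- libraries and 0.251 to 19.3 in wild-type total RNA, which checks nothing where a 3′ tag lies outside the altered part. In each series 1 library, always at ZT22, held Xist above 100 CPM although all mice are labelled male. Without these 4 libraries, an alternative added after the data were seen, the calls at isolated sites numbered 877 in place of 892 for Bmal1-/-, 1908 in place of 1915 for nuclear RNA and 1652 in place of 1643 for polysomal RNA. Rhythmic sites then numbered 280 in place of 302 in total RNA, 74 in place of 80 in nuclear RNA and 104 in place of 103 in polysomal RNA.

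Of the 2835 isolated sites 2633 were given to 1 gene, 132 to no gene and 70 to several genes. A gene was taken to own a site on its strand that fell inside it or at most 1000 bp downstream. For 607 of these sites the reference gave no strand for the gene. Its strand was then taken from a filtered site within 1000 bp of the gene's end, and genes without such a site were left out. The sites fell on 2387 genes. The nearest listed neighbour was a median of 56.4 kb away, 912 sites had none within 100 kb, and 60 had none within 1 Mb. Distance alone did not make a site the only one of its gene: 1600 sites were the only filtered site of their gene, which is 73.9% of the 2164 genes with 1 filtered site. In the unfiltered list of 86780 sites, 723 of the 2835 kept no neighbour within 20 kb.

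Classes by position were formed from the annotation after values had been seen, so they are described without a test. Genes whose strand was taken from a site hold a site near their end by construction, so class sizes are partly set by that step. The largest, 1466 sites or 51.7%, were the only site of their gene and lay at its end, with 67.8% of them within 25 bp of the annotated end. They held a median of 0.890 of their gene's deposited count in wild-type total RNA, at 14.7 CPM. A second class of 832 sites, or 29.3%, lay more than 1 kb upstream of the end of a gene that had other sites, at a median of 49999 bp upstream. These interior sites held a median of 0.113 of their gene's count, at 2.10 CPM, and were narrow, with a median width of 28 bp against 115 bp for the first class. The remaining sites were 134 interior sites that were the only site of their gene, 201 gene-end sites of genes with other sites, and 202 with no gene of their own. Pseudogenes made up 7.14% of the isolated sites given to a gene and 1.81% of the other sites.

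The highest levels in wild-type total RNA were mostly those of secreted liver proteins. The protease inhibitor gene Serpina1d (chr12:103763584-103763874) had 1546 to 12245 CPM with a median of 8759. The urinary pheromone carrier Mup13 had a median of 5895 CPM, and its lowest value of 989 was that of the library with Xist. Serpina1a and Serpina1e had medians of 4994 and 4914 CPM, the retinol carrier Rbp4 3332, the heme carrier Hpx 2673, the carboxylesterase Ces1c 1957, Ndrg2 1828, plasminogen (Plg) 1687 and the alpha globin Hba-a2 1466. Serpina1, Mup, alpha globin, Cyp2c and ribosomal pseudogene reads can be split between near-identical copies, so levels of single copies are uncertain. By distance the Y-linked translation factor Eif2s3y stood farthest from any neighbour, at 89765 kb, followed by the pseudogenes Gm12599, Gm6741, Gm11221 and Gm9238 at 4235 to 2125 kb.

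Just over the limit of 20000 bp lay a site without a gene on chromosome 12 (20016 bp), Ehbp1l1 (20026 bp) and Stk38 (20052 bp), with mean levels of 21.8, 3.91 and 13.4 CPM in total RNA. Just under it lay Frmd4b (19988 bp), Rptor (19976 bp) and Cyb5r1 (19974 bp), with means of 0.869, 7.98 and 10.2 CPM.

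Nuclear RNA was compared with total RNA to see which transcript ends were enriched before export. Interior isolated sites of genes with other sites were the class most often higher in nuclei, with Foxp1, Rnf2, Pid1 and Acvr1 at the top. Over all 832 of these sites, without a filter, their summed share of filtered-site counts was 0.375% to 0.696% per library in total RNA with a median of 0.560%. In nuclear RNA it was 0.499% to 2.20% with a median of 1.12%, so the ranges overlapped. An interior site held a median of 32.2% of the filtered-site counts of its gene in nuclear RNA against 18.6% in total RNA.

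Foxp1, a forkhead transcription factor, carried its isolated site at chr6:99435170-99435179 on the minus strand, 509.8 kb upstream of the gene end. It had 0.312 to 3.26 CPM in total RNA (median 1.75), 10.99 to 140 in nuclear RNA (median 62.1) and 0 to 3.64 in polysomal RNA (median 0.0991). All 36 nuclear libraries lay above all 36 libraries of total RNA. The difference was a log2 of 5.58 with a standard error (SE) of 0.21 (adjusted p = 1.96e-34 by edgeR's quasi-likelihood test with Benjamini-Hochberg adjustment). At the end of Foxp1 another site had medians of 4.59 CPM in total and 3.55 in nuclear RNA (log2 0.09, SE 0.15, adjusted p = 0.612).

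Pid1, which encodes a phosphotyrosine-interaction-domain protein that lowers insulin signalling in fat cells, showed opposite changes at its sites. Its isolated site (chr1:84283223-84283256, minus strand, 246.9 kb upstream) had 1.23 to 20.5 CPM in total RNA (median 8.78), 32.8 to 329 in nuclear RNA (median 181) and 0 to 3.36 in polysomal RNA (median 0.322). Its end site had 83.2 to 203.5 CPM in total RNA (median 142), 9.76 to 34.4 in nuclear RNA (median 19.1) and 39.1 to 278 in polysomal RNA (median 149). The isolated site rose by a log2 of 4.59 (SE 0.17) in nuclei while the end site fell by 2.53 (SE 0.08), with no overlap of nuclear and total libraries at either site (adjusted p = 2.81e-35 and 6.40e-40 by edgeR).

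The other interior sites that rose most in nuclei belonged to genes of varied roles. They were Rnf2, a catalytic subunit of Polycomb complex PRC1 (log2 4.74), the NF-kB restraining adaptor Tnip1 (4.57), the BMP type I receptor Acvr1 (4.53), the drug-metabolizing enzyme Cyp2c39 (4.53), the receptor phosphatase Ptprj (4.50) and the actin regulator Shroom3 (4.43), each with an SE of 0.15 to 0.24. Acvr1 had 0.566 to 4.02 CPM in total RNA and 7.76 to 93.8 in nuclear RNA, with no overlap. Cyp2c39 had 0.678 to 5.73 CPM in total and 2.98 to 126 in nuclear RNA, so its libraries overlapped. Whether an A-rich genomic stretch lies beside them was not tested. Foxp1, Rnf2, Tnip1, Acvr1 and Cyp2c39 averaged 10.7 to 13.7 counts in total RNA and 117 to 222 in nuclear RNA at these sites. They, Ptprj and Shroom3 met the minimum of 50 counts for naming only through nuclear reads, so they could be named only as rises. Pid1 averaged 58.5 counts in total RNA.

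Among the 8 largest named falls in nuclei, 7 were at sites that were the only one of their gene. Rraga (chr4:86577114-86577286, plus strand), the Rag GTPase that signals amino acids to mTORC1, had 140 to 294 CPM in total RNA (median 206.5) and 1.10 to 19.02 in nuclear RNA (median 6.39), with a log2 of -4.53 (SE 0.16). The libraries did not overlap (adjusted p = 1.92e-37 by edgeR). H2bc4, a replication histone H2B gene, had 148 to 692 CPM in total and 12.9 to 42.9 in nuclear RNA (log2 -2.94, SE 0.09). Acp1, a low molecular weight tyrosine phosphatase, had 34.5 to 65.9 CPM in total and 0.519 to 5.44 in nuclear RNA (log2 -3.81, SE 0.12). Neither gene's libraries overlapped. Tfg, Heatr5b, the prefoldin subunit Pfdn1 and the pseudogenes Gm12669 and Hspe1-ps2 fell by 2.89 to 4.66 on the log2 scale. The site of Pfdn1 was an interior site of a gene with other sites. Acp1, Gm12669, Hspe1-ps2 and Heatr5b averaged 3.19 to 8.92 counts in nuclear RNA, so they were tested and named only through total RNA. Rraga, Tfg and Pfdn1 averaged 24.1, 15.1 and 10.3 counts there and met the minimum for naming only through total RNA. All of these sites could be named only as falls, whereas H2bc4 averaged 85.6 counts in nuclear RNA.

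**Figure D1:**
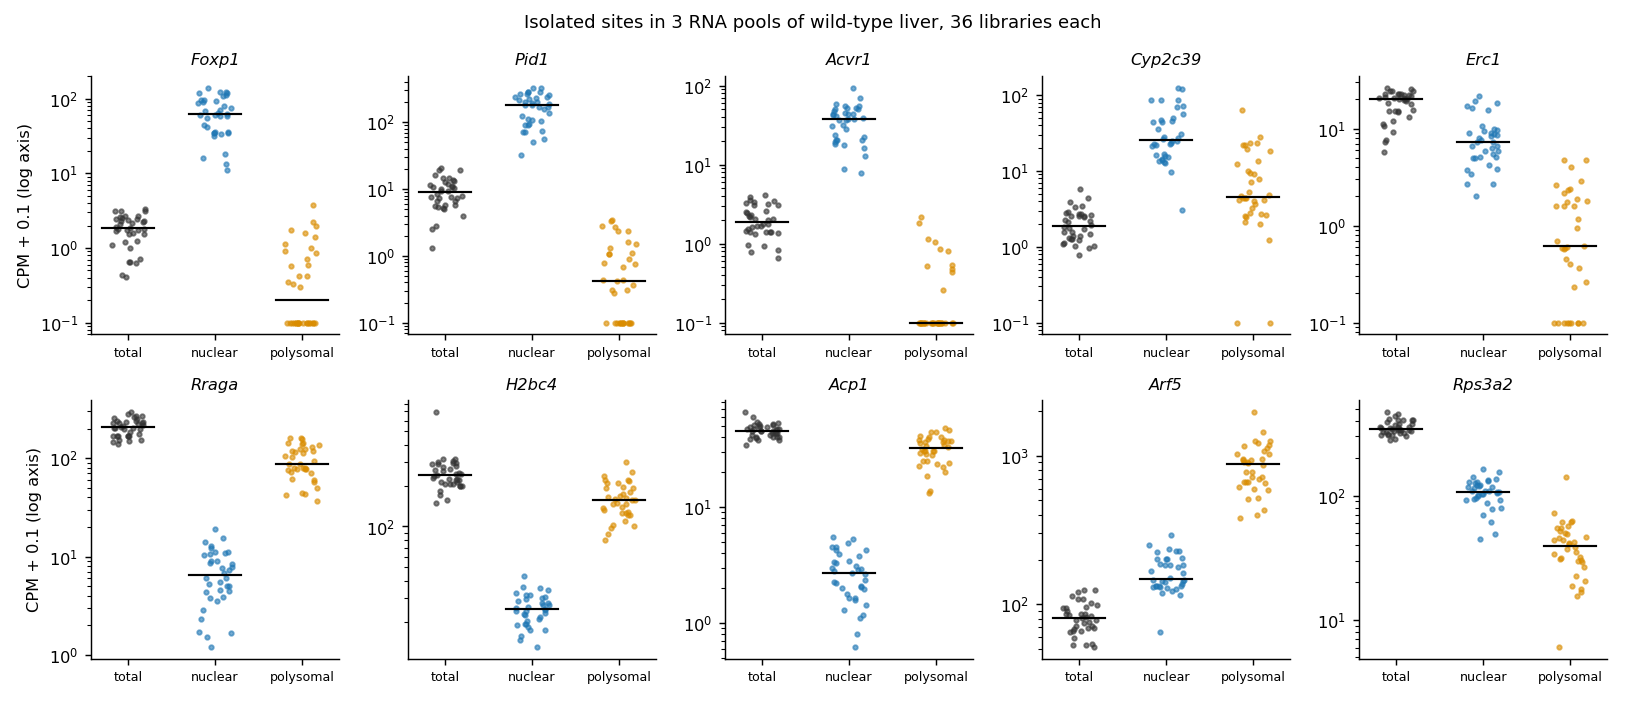
Level at 10 isolated sites (CPM + 0.1, log axis) in 3 RNA pools of wild-type liver, with 1 point for each of 36 libraries and a bar at the median. The interior sites of Foxp1, Pid1 and Acvr1 are high in nuclei and near 0 on polysomes, Rraga, H2bc4 and Acp1 are low in nuclei, and Arf5 is highest on polysomes.

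The share of isolated sites called was close to that over all sites, with more of them higher. Of 2283 isolated sites tested, 1915 were called (83.9%) against 82.6% of all 17649 sites tested, 1104 higher (48.4%, all sites 39.4%) and 811 lower (35.5%, all sites 43.2%). Among isolated sites 63 (2.76%, all sites 1.4%) had every nuclear library above every total library, and 145 (6.35%, all sites 6.32%) had every nuclear library below. At a change of at least 2-fold 639 were higher and 416 lower, against 21.1% and 25.5% of all sites. The median log2 was 0.21 at isolated sites and -0.06 over all sites. Median-ratio scaling moved these to 0.01 and -0.27. Among the 832 interior sites 540 passed the filter of a mean of 10 counts, 370 higher and 109 lower, with a median log2 of 1.4. Sites that passed only through their nuclear reads had to be higher, so the same was read from the 438 sites with a mean of 10 counts in total RNA alone, of which 268 were higher and 109 lower with a median of 0.85. With a minimum of 1 count, 830 of the 832 were tested, 486 were higher and 198 lower, and the median was 0.89.

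Isolated sites far from the gene end had the larger medians in nuclei. At isolated sites with at least 10 counts in total RNA, the median log2 was 0.05 under 1 kb upstream (1466 sites), 0.17 at 1 to 5 kb (84 sites), -0.36 at 5 to 20 kb (31 sites), 0.44 at 20 to 50 kb (210 sites), 0.98 at 50 to 100 kb (126 sites) and 1.53 beyond 100 kb (99 sites). Other filtered sites gave -0.13 under 1 kb and -0.29, -0.14 and 0.36 in the last 3 bins. These bins were not tested against each other. Where an interior site with at least 10 counts in total RNA and the end site of the same gene were both tested, the interior site had the higher log2 in 243 of 321 cases. Without that minimum, which removes sites that passed through nuclear reads alone, it did in 289 of 367. Interior sites of 1 gene share its transcripts and are not independent of each other.

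**Figure D2:**
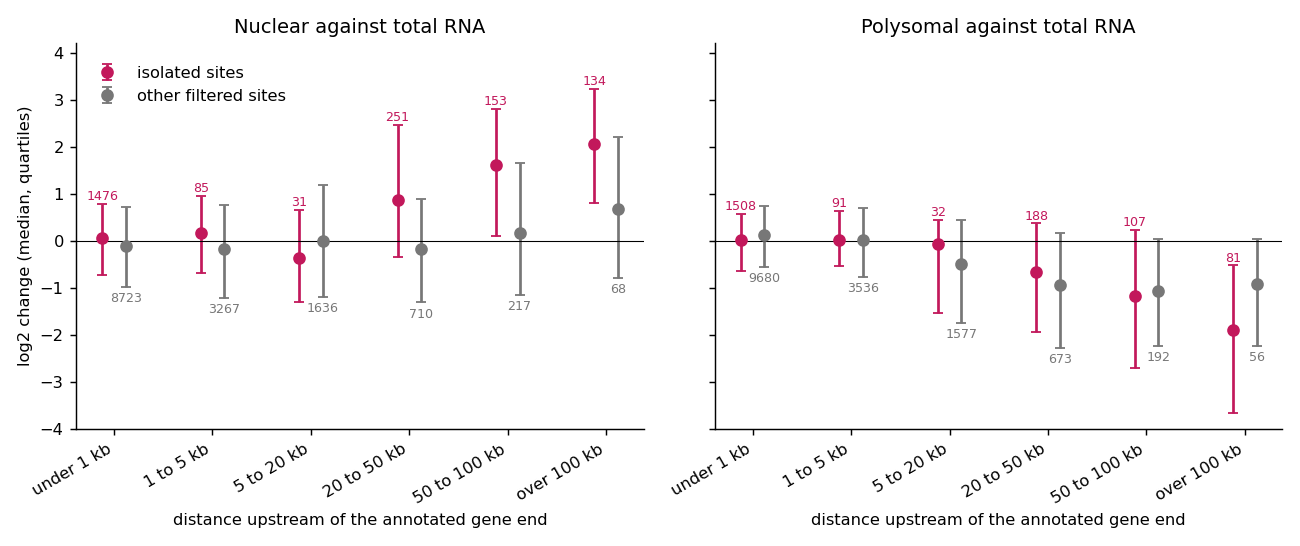
Median log2 change (points) with quartiles (bars) of nuclear and polysomal against total RNA by distance upstream of the annotated gene end, at sites with a mean of 10 counts in the fit; numbers give sites. Isolated sites beyond 100 kb have a median of 2.06 in nuclei and -1.90 on polysomes, and other filtered sites have 0.67 and -0.92. The minimum is over both series, so a site can pass through its nuclear reads alone; with 10 counts in total RNA the nuclear medians beyond 100 kb are 1.53 and 0.36.

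Polysomal RNA was compared with total RNA to see which transcript ends were carried by translated mRNA. Interior isolated sites with enough reads in total RNA were mostly lower on polysomes, while only sites at gene ends were called higher 523 times and lower 506 times among 1360 tested. The interior sites summed to 0.296% to 0.709% of filtered-site counts per library (median 0.460%), a range that overlapped the 0.375% to 0.696% in total RNA. An interior site held a median of 6.85% of its gene's filtered-site counts on polysomes against 18.6% in total RNA. The fall was not confined to isolated sites. With 10 counts in total RNA, 58% of isolated and 64.8% of other filtered sites were lower at 20 to 50 kb upstream. These shares were 63.5% and 68.1% at 50 to 100 kb, and 78.8% and 61.8% beyond 100 kb.

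Acsl1, the acyl-CoA synthetase that activates long-chain fatty acids in liver, had an isolated site 63.6 kb upstream of its end (chr8:46472277-46472436, plus strand). The site had 21.3 to 103 CPM in total RNA (median 33.9), 29.0 to 405 in nuclear RNA (median 130) and 0 to 7.79 on polysomes (median 2.62). Polysomal libraries all lay below total RNA (log2 -3.89, SE 0.18, adjusted p = 8.74e-30 by edgeR), whereas nuclear libraries overlapped it and were higher by a log2 of 2.14 (SE 0.14). The end site of Acsl1 had medians of 627 CPM in total, 143 in nuclear and 415 in polysomal RNA and fell by 0.59 (SE 0.08) on polysomes on the log2 scale.

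Erc1, a scaffold of vesicle docking sites, had 5.57 to 26.3 CPM at its interior site in total RNA (median 19.98) and 0 to 4.60 on polysomes (median 0.512), with no overlap (log2 -4.26, SE 0.25). The deubiquitinase Usp34 and the dystrophin relative Utrn fell at interior sites by 3.74 and 3.55 on the log2 scale, and their end sites fell by 0.95 and 0.84. The other named falls were at pseudogenes or gene copies, most of them of ribosomal proteins. Rps3a2 (chr14:88122962-88123074, minus strand) had 280 to 468 CPM in total RNA, 44.8 to 164 in nuclear RNA and 5.95 to 142 on polysomes (log2 -3.15, SE 0.14), so total and polysomal libraries did not overlap. Its highest polysomal value was that of the library with Xist, and the others reached 72.6 CPM. Rps19-ps2, Gm13226 and Rpl21-ps8 had log2 values of -4.11, -4.01 and -3.36. Erc1, Usp34 and Utrn averaged 5.03, 8.36 and 9.33 counts on polysomes, so they were tested and named only through total RNA. Acsl1, Rps19-ps2, Gm13226 and Rpl21-ps8 averaged 12.8, 14.1, 35.6 and 17.8 counts there. They too met the minimum of counts for naming only through total RNA. All of these sites could be named only as falls, whereas Rps3a2 averaged 191 counts on polysomes.

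Higher levels on polysomes were found at end sites and interior sites alike. Arf5 (chr6:28426552-28426625, plus strand), a small GTPase of the Golgi, had 51.5 to 125 CPM in total RNA (median 81.4), 64.7 to 291 in nuclear RNA (median 148) and 379 to 1959 on polysomes (median 876). No polysomal library overlapped total RNA, and the log2 was 3.35 (SE 0.11, adjusted p = 3.08e-38 by edgeR). Interior sites of the lysosomal cholesterol exporter Npc1 (3.19), the RNA-binding protein gene Marf1 (2.89), the endocytic receptor Lrp1 (2.53) and Wdr45b (2.48) rose, as did the sites of the cell death effector Bak1 (2.7), Flywch1 (2.57) and the tail-anchored protein ATPase Get3 (2.45). Each of these 8 sites was also higher in nuclear than in total RNA, by 1.38 to 3.62 on the log2 scale. Lrp1 had 15.4 CPM in total and 81.8 on polysomes (medians) at the interior site, and its end site fell by 1.29 (SE 0.09). The sites of Npc1, Marf1, Bak1 and Flywch1 averaged 38.2, 34.1, 22.4 and 44.1 counts in total RNA. They met the minimum of counts for naming only through polysomal reads, so they could be named only as rises.

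Of 2147 isolated sites tested on polysomes, 1643 were called (76.5%) against 75% of all 18671, 733 higher (34.1%, all sites 37.5%) and 910 lower (42.4%, all sites 37.5%). At a change of at least 2-fold 251 were higher and 519 lower, against 15% and 20.7% of all sites. Higher calls were 44.6% of these calls with the scaling used and 33.2% with median-ratio scaling, which moved the median over all sites from -0.00 to -0.23. In 52 sites (2.42%, all sites 1.36%) every polysomal library lay above total RNA, and in 46 (2.14%, all sites 1.48%) every one lay below. Of the 832 interior sites 371 had a mean of 10 counts in total RNA, with 73 higher, 236 lower and a median log2 of -1.11. Among the 233 with 10 counts on polysomes, 84 were higher, 90 lower and the median was -0.08, so the balance of directions depends on which series sets the filter. Interior sites without any unfiltered neighbour and with 10 counts in total RNA numbered 31, with 12 higher, 16 lower and a median of -0.62 on polysomes. In nuclei 52 such sites gave 41 higher, 5 lower and a median of 1.45. Without the minimum in total RNA, which lets sites pass through the fraction alone, 36 sites gave 17 higher and 16 lower on polysomes (median 0.01) and 96 gave 85 and 5 in nuclei (median 2.53).

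The genotypes were compared in total RNA to see which sites depend on BMAL1. The largest rises were at gene-end sites of Tox2, Raet1d and Adam11 and the largest falls at those of Dio1, Cyp17a1 and Thrsp and at an interior site of Mme. Isolated sites differed between genotypes about as often as all sites. Of 2358 tested, 892 were called (37.8%, all sites 33.4%), 452 higher (19.2%, all sites 17.2%) and 440 lower (18.7%, all sites 16.2%). At a change of at least 2-fold there were 62 higher and 58 lower, against 2.16% and 1.92% of all 19962 sites.

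Tox2 (chr2:163324087-163324176, plus strand), an HMG-box transcription factor, had 0.245 to 55.1 CPM in wild type (median 1.65) and 25.3 to 126.5 in Bmal1-/- (median 69.2). The ranges overlapped, and the difference was a log2 of 4.12 (SE 0.27, adjusted p = 8.69e-20 by edgeR). Raet1d, a ligand of the killer cell receptor NKG2D, had medians of 13.5 and 106 CPM (log2 2.77, SE 0.25). Adam11, a membrane protein of the ADAM family, had medians of 3.95 and 25.1 CPM (log2 2.39, SE 0.18). Cnp, the myelin enzyme CNPase, had 2.55 to 25.7 CPM in wild type and 13.5 to 38.8 in Bmal1-/- (log2 1.64, SE 0.11). In each of these genes the ranges overlapped. Tox2, Adam11 and Cnp averaged 26.2, 29.5 and 46.4 counts in wild type. They met the minimum of counts for naming only through Bmal1-/- reads, so they could be named only as rises. Summed markers of bile duct cells (7 genes) had 17.4 to 66.6 CPM in wild type (median 26.7) and 47.2 to 136 in Bmal1-/- (median 74.7), and their part in these differences was not tested. In bulk liver fewer cells of a type and less RNA per cell cannot be told apart.

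Other rises were less even between libraries. Serpina12, the adipokine vaspin, had 1.96 to 321 CPM in wild type and 1.06 to 617 in Bmal1-/- (log2 1.81, SE 0.27). Mup2 had 51.2 to 806 CPM in wild type and 3.58 to 6828 in Bmal1-/- (log2 1.72, SE 0.38), and with replicates 4 to 6 alone its log2 was 1.21 (adjusted p = 0.203 by edgeR). In both genes the wild-type library with Xist was the lowest of its series. The pseudogene Rps15a-ps8 had medians of 3.01 and 21.6 CPM (log2 2.14, SE 0.23). It averaged 27.5 counts in wild type and met the minimum for naming only through Bmal1-/- reads, so it could be named only as a rise. A site of the ribosomal pseudogene Rps13-ps5 (chr11:61205745-61205756, minus strand), singled out after its values were seen, was the 1 isolated site whose genotypes did not overlap upward (0.0424%, all sites 0.0301%), with 0 to 0.377 CPM in wild type and 0.398 to 6.22 in Bmal1-/-. That site passed the count filter only through its Bmal1-/- reads, so it could only be higher there. No isolated site had every Bmal1-/- library below wild type (all sites 0.00501%).

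Dio1 (chr4:107291447-107291660, minus strand), the deiodinase that activates thyroid hormone in liver, had 26.9 to 186 CPM in wild type (median 106) and 0 to 39.6 in Bmal1-/- (median 5.13). The ranges overlapped between 26.9 and 39.6 CPM (log2 -3.46, SE 0.34, adjusted p = 9.04e-13 by edgeR). Acacb, the mitochondrial acetyl-CoA carboxylase that restrains fat oxidation, had 17.5 to 82.4 CPM and 0.630 to 46.7 (log2 -2.27, SE 0.17). Aldh3a2, a fatty aldehyde dehydrogenase, had 49.0 to 285 CPM and 6.34 to 61.0 (log2 -2.44, SE 0.15). Thrsp, a regulator of lipid synthesis known as Spot 14, had 40.7 to 3691 CPM and 19.6 to 404 (log2 -2.74, SE 0.27).

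The steroid hydroxylase gene Cyp17a1 fell by 3.23 (SE 0.42) on the log2 scale from a median of 5.70 CPM to 0.569, with its highest wild-type value of 202 in the library with Xist. The glutathione transferase Gsta2 fell by 2.45 (SE 0.28) and the secreted inhibitor Wfdc2 by 2.25 (SE 0.24). Mme, the peptidase neprilysin, fell by 3.29 (SE 0.23) at an interior site 37.6 kb upstream and by 3.49 (SE 0.25) at its end site, in the same direction. The isolated sites of Cyp17a1, Mme, Gsta2 and Wfdc2 averaged 12.3, 12.1, 23.6 and 18.8 counts in Bmal1-/-. They met the minimum of counts for naming only through wild-type reads, so they could be named only as falls.

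**Figure D3:**
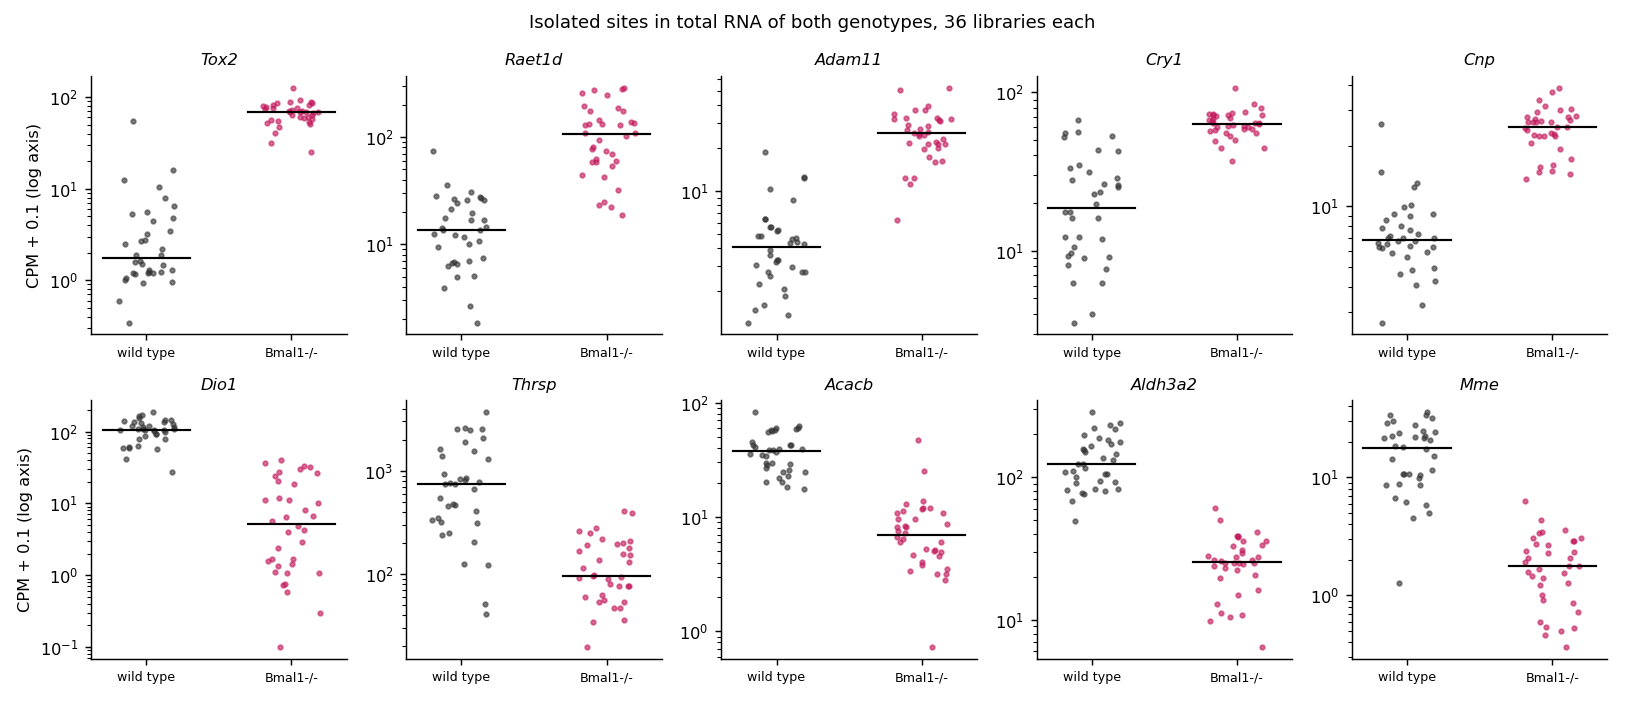
Level at 10 isolated sites (CPM + 0.1, log axis) in total RNA of wild-type and Bmal1-/- liver, with 1 point for each of 36 libraries and a bar at the median. Medians differ most at Tox2 (1.65 and 69.2 CPM) and Dio1 (106 and 5.13 CPM), and the ranges overlap in every panel.

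Rhythms were tested with a cosine and a sine of 24 h in each series. In wild-type total RNA 302 of 2309 isolated sites tested were called (13.1%, all sites 11.1%), with a median fitted peak-to-trough ratio of 1.82. Replicates 1 to 3 alone gave 181 calls and replicates 4 to 6 alone 59. By class, the only sites at gene ends were called in 216 of 1385 (15.6%) and interior sites of genes with other sites in 38 of 488 (7.79%). Fitted peaks were spread over the day, with 85 (28.1%) at ZT0 to 4 and 63 (20.9%) at ZT20 to 24, and over all called sites these bins held 23.5% and 20.6%.

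Cry1 (chr10:85131699-85131864, minus strand), the clock repressor cryptochrome 1, held 91.1% of its gene's count at its isolated site. In wild-type total RNA it had 3.42 to 9.15 CPM at ZT6 (median 7.54) and 26.0 to 55.8 at ZT22 (median 47.3), with no overlap of these times. Its fitted peak-to-trough ratio was 7.22 with a peak at ZT19.3 (adjusted p = 2.40e-10 by edgeR). In Bmal1-/- it had 37.0 to 107 CPM at all times, with medians from 59.2 at ZT6 to 72.5 at ZT22. The ratio there was 1.29, the rhythms differed between genotypes (adjusted p = 9.00e-10 by edgeR's interaction test), and the mean level rose by a log2 of 1.69 (SE 0.09).

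Nfil3 (chr13:52967207-52967428, minus strand), a repressor of D-box genes, peaked at ZT22.4 with a ratio of 4.89 (adjusted p = 1.35e-09 by edgeR). It had 5.27 to 8.13 CPM at ZT10 and 31.8 to 48.2 at ZT2 in wild type, with no overlap. In Bmal1-/- these times gave 21.2 to 36.4 and 17.7 to 44.99 CPM, which overlapped, and the rhythms differed (adjusted p = 1.69e-06 by edgeR). Tubb2a, a beta tubulin, had 14.7 to 55.0 CPM at ZT10 and 188 to 275 at ZT22 in wild type, against 108 to 225.5 and 120 to 212 in Bmal1-/-. Its ratio was 6.57 in wild type and 1.42 in Bmal1-/- (adjusted p of the difference 1.19e-04).

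Rgs16, a regulator that switches off G-protein signals, had the highest ratio of the named sites, 48.9, with a peak at ZT9.3 (adjusted p = 3.82e-06 by edgeR). It had 4.43 to 100.1 CPM at ZT10 and 0 to 4.52 at ZT22 in wild type, which touched at the edges. In Bmal1-/- the medians were 0 to 0.303 CPM at every time, while single libraries reached 23.3 at ZT18 and 15.7 at ZT2. The fitted ratio of 15.0 there had an adjusted p of 1 by edgeR, and the rhythms differed between genotypes (adjusted p = 2.38e-04). With replicates 1 to 3 alone this difference had an adjusted p of 0.997 by edgeR.

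Angptl8, a feeding-induced inhibitor of lipoprotein lipase, had 7.13 to 16.9 CPM at ZT10 and 26.2 to 66.8 at ZT14 in wild type, with a ratio of 4.57 and a peak at ZT18.5. On polysomes it was lower than in total RNA (log2 -2.80, SE 0.22). Calcoco1, a selective autophagy receptor, peaked at ZT5.6 (ratio 4.30), and Fkbp5, a glucocorticoid-induced chaperone, at ZT16.0 (ratio 5.77). The rhythms of Angptl8, Calcoco1 and Fkbp5 differed in Bmal1-/-, with adjusted p values of 0.00115, 0.00222 and 0.0414 by edgeR. Denn2b, a Rab exchange factor (ratio 3.63, peak at ZT23.6), and Blcap (ratio 2.10, peak at ZT22.8) had ratios of 1.02 and 1.03 in Bmal1-/- and also differed.

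For the other named rhythms the difference between genotypes did not pass the threshold. Thrsp had a median of 299 CPM at ZT2 and 1736 at ZT14 in wild type (ratio 5.26) and had medians of 65.0 to 206 in Bmal1-/- (adjusted p of the difference 0.0595). Depp1, a FOXO target in autophagy, peaked at ZT4.2 (ratio 4.62, adjusted p of the difference 0.0639), the stress kinase Plk3 at ZT13.4 (3.98, 0.0634) and the mTORC1 inhibitor Ddit4 at ZT19.9 (3.96, 0.203). Cyp17a1 had a fitted ratio of 13.7 (adjusted p = 9.06e-04 by edgeR, difference 0.937), yet its medians ran only from 3.65 to 11.4 CPM over the day. Its 2 highest libraries, 187 CPM at ZT18 and 202 at ZT22, stood far above the others, which reached 16.8.

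**Figure D4:**
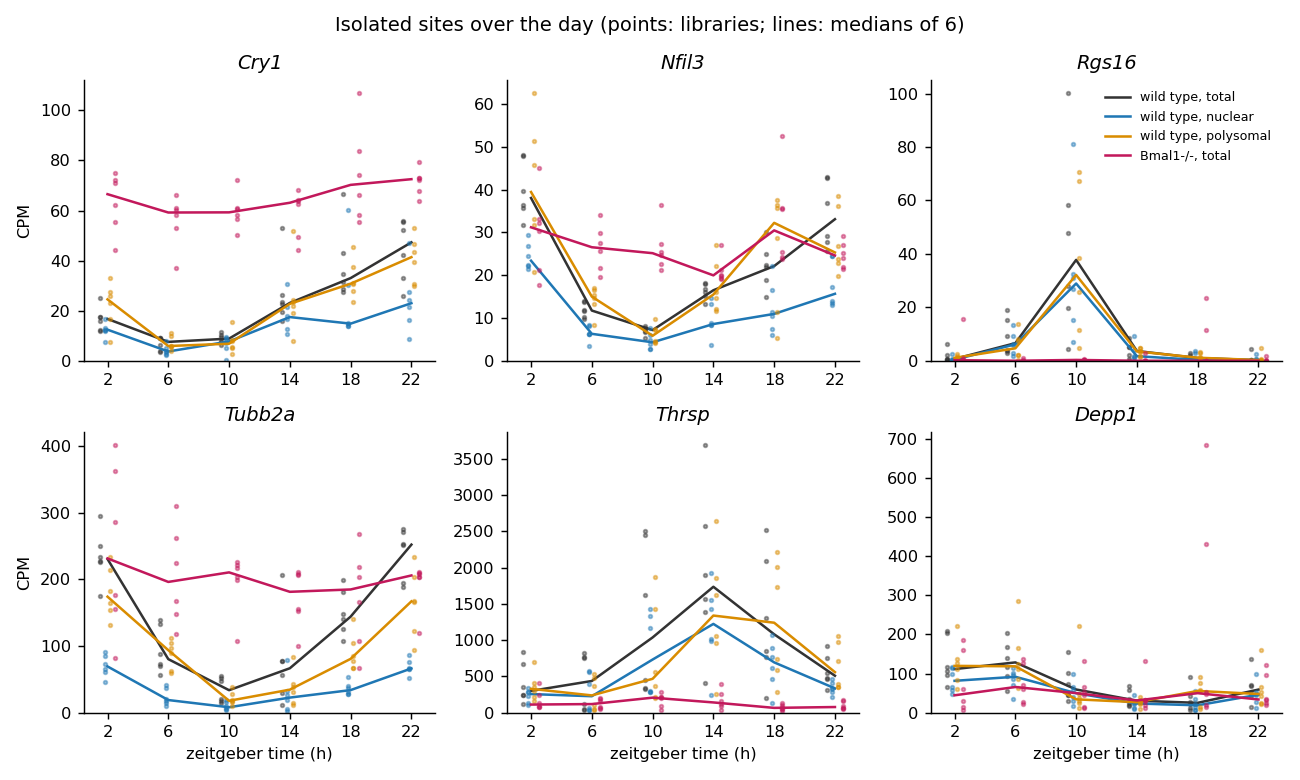
Level (CPM, linear axis) at 6 isolated sites over zeitgeber time, with points for libraries and lines for the medians of 6 libraries in each series. Cry1, Nfil3 and Tubb2a swing in the 3 wild-type RNA pools and less in Bmal1-/-, where Rgs16 and Thrsp have low medians.

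In Bmal1-/- liver 0 of 2377 isolated sites tested were called rhythmic (all sites 0%), with 97 at an unadjusted p under 0.05 by edgeR and 0 called by DESeq2. Of the 302 sites rhythmic in wild type 299 were tested in Bmal1-/-, and their median ratio was 1.80 in wild type and 1.17 there. These sites were chosen for their wild-type rhythm, so the gap is a description. The interaction test, which compares the rhythms directly, called 72 of 2358 isolated sites (3.05%, all sites 2.28%), and 67 of them were among the 299.

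Nuclear and polysomal RNA were fitted by themselves. In nuclear RNA 80 of 1972 isolated sites were called (4.06%, all sites 3.49%) and on polysomes 103 of 1857 (5.55%, all sites 3.88%). Replicates 1 to 3 alone gave 13 nuclear and 6 polysomal calls and replicates 4 to 6 alone 21 and 64. Without replicate 1 of polysomal RNA, 64 were called there. Of sites tested in both, 71 were called in total and nuclear RNA, which is 25.7% of the total and 93.4% of the nuclear calls, with 69 of them within 2 h. Total and polysomal RNA shared 74 calls, 27.8% of the total and 71.8% of the polysomal calls, with 55 later on polysomes and a median lag of 0.748 h. Sites called in both series were chosen by both tests, so this lag is a description. Fewer calls in a series do not show a weaker rhythm. The interaction test against total RNA called 0 of 2283 sites in nuclear RNA (all sites 0%) and 0 of 2147 on polysomes (all sites 0.0107%). At an unadjusted p under 0.05 there were 44 and 122 sites by edgeR, and DESeq2 called 0 and 11.

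Cry1 peaked at ZT19.3, ZT19.1 and ZT19.9 in total, nuclear and polysomal RNA with ratios of 7.22, 5.99 and 6.93. Nfil3 peaked at ZT22.4, ZT22.6 and ZT22.3 with ratios of 4.89, 4.32 and 4.61. Rgs16 peaked at ZT9.3, ZT9.8 and ZT10.0 with ratios of 48.9, 58.6 and 39.2. In these genes the time of the peak moved by less than 1 h between the pools. The interior site of Acsl1 was rhythmic in total RNA (ratio 2.48, peak at ZT13.2, adjusted p = 2.39e-04 by edgeR) and in nuclear RNA (2.79, ZT13.3, 0.00698).

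**Figure D5:**
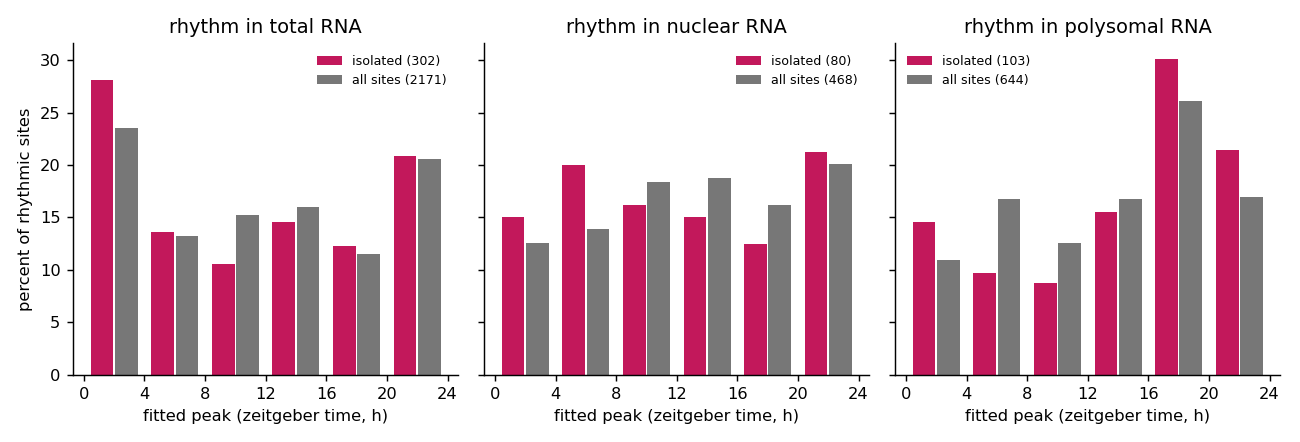
Percent of rhythmic sites by fitted peak in bins of 4 h of zeitgeber time, for isolated sites and for all sites called in each RNA pool (numbers of sites in the keys). The isolated sites of total RNA are most frequent at ZT0 to 4 (28.1%) and those of polysomal RNA at ZT16 to 20 (30.1%).

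Pathway lists were unevenly represented among isolated sites. Of 19 clock genes 5 held an isolated site. Besides Cry1 and Nfil3 these were an interior site of Npas2, the partner of BMAL1 (log2 3.90, SE 0.27 in Bmal1-/-, medians of 0.137 and 3.56 CPM), 2 interior sites of Clock, and a site of Arntl with too few reads to test. The first interior site of Clock (start 76266358) peaked at ZT23.0 (ratio 2.15, adjusted p = 0.00797 by edgeR) and fell by 2.80 in nuclear RNA. It passed the count filter of the nuclear comparison only through total RNA, so it could only be lower there. Of 5 clock sites tested in Bmal1-/-, 3 were higher (all sites 17.2%) and 0 lower (all sites 16.2%), and of 3 tested for rhythm in total RNA 3 were called (all sites 11.1%). The rhythm differed between genotypes at 4 of the 5 (all sites 2.28%), which were those of Cry1, Nfil3 and Npas2 and the other interior site of Clock (chr5, start 76235130). The adjusted p of this difference was 0.00329 for Npas2 and 0.0296 for that site of Clock by edgeR. It was 0.0799 for the first interior site of Clock. The site of Npas2 and that of Clock at 76235130 passed the count filter only through their Bmal1-/- reads. Their mean counts were 3.33 and 8.67 in wild type and 25.3 and 11.75 in Bmal1-/-. Npas2, counted among the 3 higher sites, could therefore only be higher there. Neither site was tested for rhythm in wild type alone.

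Subunits of oxidative phosphorylation gave 14 sites, of which 10 were lower (all sites 43.2%) and 3 higher (all sites 39.4%) in nuclear RNA, with a median log2 of -1.14 against -0.06 over all sites. Uqcrfs1, the Rieske iron-sulfur protein of complex III, fell by 2.66 in nuclei, from a median of 236 CPM to 28.7, and Ndufa6 of complex I by 1.81. On polysomes 4 of the 14 were higher and 6 lower (all sites 37.5% each way). In Bmal1-/- 3 were lower and 0 higher (all sites 16.2% and 17.2%).

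Plasma protein genes had 10 isolated sites, of which 5 were higher and 3 lower in nuclei (all sites 39.4% and 43.2%). Hpx rose by 1.91 (2673 and 6942 CPM, medians) and coagulation factor F12 by 1.74, while F5 and Rbp4 fell by 0.78 and 0.54. In Bmal1-/- 4 were higher and 2 lower (all sites 17.2% and 16.2%), with Plg at 0.55 (SE 0.06) and Rbp4 at -0.24 (SE 0.06).

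Xenobiotic and bile acid enzymes had 19 sites on 16 genes, 5 higher and 5 lower in Bmal1-/- (all sites 17.2% and 16.2%). Cyp2c29 rose by 1.23 (SE 0.12) and the glutathione transferase Gstm1 by 0.97 (SE 0.09). The bile acid enzymes Cyp8b1 and Cyp27a1 fell by 0.96 (SE 0.17) and 0.58 (SE 0.07). Of lipid synthesis genes 9 sites were tested, 4 lower and 1 higher in Bmal1-/- (all sites 16.2% and 17.2%), the falls including Thrsp, Acacb and Acsl5.

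Glucose and amino acid genes gave 12 sites, 9 lower and 0 higher on polysomes (all sites 37.5% each way), with a median log2 of -0.66 against 0.00 over all sites. Among them Pygl, liver glycogen phosphorylase, fell by 0.90 there and the tyrosine catabolic enzyme Fah by 0.61. Cbs, which condenses homocysteine and serine, rose by 0.80 (SE 0.08) in Bmal1-/- and was rhythmic in wild type (ratio 1.96, peak at ZT2.3, adjusted p = 0.00136 by edgeR). The immediate early and stress list had 5 sites, 2 higher and 1 lower in Bmal1-/- (all sites 17.2% and 16.2%), with Gadd45g higher by 1.33 (SE 0.27).

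Markers of other liver cells had few isolated sites: 3 of macrophages, 3 of sinusoidal endothelium, 1 of stellate cells, 3 of blood cells and 0 of bile duct or of adipose tissue and lung. With so few sites the counts describe the sites and not the cell types. Of the 3 macrophage sites 2 were lower (all sites 43.2%) and 0 higher (all sites 39.4%) in nuclei. On polysomes 2 of them were lower and 1 higher (all sites 37.5% each way). The scavenger receptor Cd163 fell by 2.49 in nuclei and by 2.63 on polysomes. Its site, counted among the lower ones, passed the count filter of both comparisons only through total RNA. It could therefore only be lower in them. Of the 3 endothelial sites 1 was lower and 1 higher in nuclei (all sites 43.2% and 39.4%), and 3 were lower on polysomes (all sites 37.5%). The hyaluronan receptor Lyve1 fell by 2.38 in nuclei, whereas the scavenger receptor Stab2 rose by 1.19 (SE 0.10). All 3 blood cell sites (Hba-a2, Alas2 and Cd74) were lower in Bmal1-/- (all sites 16.2%), by 0.71 to 0.96. The summed blood markers had medians of 1501 CPM there and 2629 in wild type. The cleavage and polyadenylation list had 1 site (Papolg), the ribosomal protein list 1 (Rps29, lower by 0.91 in nuclei) and the non-coding RNA list 1 (Epb41l4aos, lower by 1.99 on polysomes).

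Per library, isolated sites held 15.2% to 17.1% of filtered-site counts in total RNA (median 15.9%), 16.0% to 19.1% in nuclear RNA (17.5%), 15.7% to 19.4% on polysomes (17.8%) and 14.9% to 16.8% in Bmal1-/- (15.8%). The order of these medians is not stable, since nuclear RNA fell below total RNA with a window of 50 kb (8.23% and 8.50%) or with all sites of the unfiltered list as denominator (13.7% and 14.3%). Over the 6 times the medians in total RNA ran from 15.8% to 16.4%.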

How the data were processed

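Read counts per polyadenylation site and per gene were deposited by the authors for 144 libraries (whole numbers, not normalized), with a list of 29199 filtered sites among 86780, and 0 columns had no sample. The submitters' processing notes name STAR 2.4.2a, edgeR, HOMER, mm10 and GRCm38.p5, with no role given. How the authors filtered sites is not given in the sources used here. Site counts were fitted here over all filtered sites averaging 10 or more counts a library, with edgeR 4.0.16 in R 4.3.3 (TMM factors, robust quasi-likelihood fit, Benjamini-Hochberg threshold 0.05 over all sites tested). Series were contrasted as averages of 6 time-point means, and rhythms by a cosine and a sine of 24 h with 2 degrees of freedom, alone or as an interaction with series. CPM are counts scaled to a fixed library total over all 86780 sites (over the gene table for marker genes, Arntl and Xist), lowest and highest are over 36 libraries, and the standard error is the log2 change over the root of the F statistic. The fits were tested on simulated data. Gene positions and promoters came from RefSeq (GRCm38.p6).

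Named sites were the 10 highest in total RNA, the 8 largest rises and falls of each comparison and the 12 largest rhythms among sites averaging 50 or more counts, the 6 smallest p-values of the rhythm difference with Bmal1-/-, up to 6 per gene list, and those nearest the distance limit. In a comparison the minimum of 50 is a mean over both series, so a site can meet it through 1 series alone, which favours large changes. The members, lists and position classes were chosen with earlier results of these data known. Alternatives were other windows, median-ratio scaling, DESeq2 1.42.0, other count minimums, replicate subsets, a replicate block and leaving out libraries. Same-numbered libraries did not deviate together in every pair, so the main fits have no block.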

Additional observations from a re-analysis of the deposited data

Results flagged for a closer look

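Within single time points, 11 of 96 groups of 6 libraries held a library far from the other 5 (Dixon's test at 95%, which chance gives in about 1 in 20 groups). The 96 groups covered the share of counts at isolated sites in all 4 series and the levels of 12 named rhythmic sites in wild-type total RNA. All 11 flagged groups were of these site levels and none of the shares. Cyp17a1 had 186.9 CPM in replicate 5 at ZT18 (others 4.34 to 16.6) and 201.9 CPM in replicate 5 at ZT22 (others 4.07 to 12.5), the latter being the library with Xist. Cry1 had 53.16 CPM in replicate 4 at ZT14 (others 16.0 to 26.4), and Tubb2a had 206.1 CPM in the same library (others 11.7 to 76.97). Rgs16 had 6.379 CPM in replicate 3 at ZT2 (others 0.303 to 2.03) and 4.522 in replicate 1 at ZT22 (others 0 to 0.332). Fkbp5 was low at ZT10 in replicate 4, with 9.763 CPM (others 15.9 to 18.8). Angptl8 had 26.25 CPM in replicate 3 at ZT6 (others 4.41 to 12.3) and 106.5 in replicate 6 at ZT18 (others 12.7 to 43.1). Calcoco1 had 48.31 CPM in replicate 3 at ZT14 (others 19.9 to 28.8), and Plk3 had 15.65 CPM in replicate 5 at ZT22 (others 3.28 to 6.80).

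The rhythm differed between Bmal1-/- and wild type at 11 named sites by edgeR's interaction test with Benjamini-Hochberg adjustment. Of these, the interior sites of Npas2 and Clock passed the count filter only through their Bmal1-/- reads. The adjusted p was 9e-10 for Cry1, 1.69e-06 for Nfil3, 0.000118 for Denn2b, 0.000119 for Tubb2a, 0.000238 for Rgs16, 0.0004 for Blcap, 0.00115 for Angptl8, 0.00222 for Calcoco1, 0.00329 for the interior site of Npas2, 0.0296 for the interior site of Clock that starts at 76235130 on chromosome 5 and 0.0414 for Fkbp5.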

How the results depend on the processing

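Of 651 values of 76 results at named sites under alternatives, 630 kept their direction and side of the threshold, 21 no longer passed it and 0 reversed. Named sites were chosen for large effects, and a site missing from an alternative fit was not counted. For the 15 main results, which are counts and shares over all isolated sites, 42 values moved beyond a set limit and 86 did not. With a window of 50 kb the calls numbered 545 for Bmal1-/-, 1059 for nuclear and 916 for polysomal RNA, with 181, 45 and 66 rhythmic sites in total, nuclear and polysomal RNA and 36 differences in rhythm with Bmal1-/-; with no unfiltered site within 20 kb they were 204, 425, 348, 65, 18, 23 and 19, both from fewer sites. Replicates 1 to 3 alone gave 181, 13 and 6 rhythmic sites and 26 differences, and replicates 4 to 6 gave 59, 21, 64 and 11. DESeq2 called 121 rhythmic sites in nuclear RNA and 11 differences in rhythm for polysomal RNA, for which a minimum of 1 count gave 19. Without PO replicate 1, 64 polysomal rhythms and 5 such differences were called. The cause was not tested. The share of counts (total, nuclear, polysomal, Bmal1-/-) was 19.67%, 22%, 22.28% and 20.01% at 10 kb, 8.499%, 8.227%, 9.95% and 8.35% at 50 kb, and 14.29%, 13.71%, 16.28% and 14.17% over all unfiltered sites. Same-numbered libraries correlated over 0.1 in 31 of 36 pairs of total with nuclear RNA, 1 of 36 with polysomal RNA and 19 of 36 with Bmal1-/-, and 23, 0 and 12 correlated best with their own number. With the replicate block the calls were 960 for Bmal1-/-, 1947 for nuclear and 1569 for polysomal RNA, with 131 nuclear and 182 polysomal rhythms and 1 polysomal difference in rhythm. Without the 4 libraries with Xist, chosen after the data were seen, the nuclear rhythm of Cyp17a1 no longer passed (ratio 4.64, adjusted p = 0.0903 by edgeR).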

Other observations

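The 4 libraries with Xist above 100 CPM carried no common replicate number, and levels at named isolated sites in them were as follows. Cyp17a1 had 201.9 CPM in total, 164.2 in nuclear and 157.6 in polysomal RNA, above all other libraries of each series, and 0.817 in Bmal1-/-, within the range of the others. Mup13 had 989 CPM in total RNA (others 3034 to 8969), 287 in nuclear RNA (others 963 to 5985) and 537 in polysomal RNA (others 4389 to 13431). Eif2s3y, a Y-linked gene, had 0 CPM in total RNA (others 6.49 to 17.4) and in polysomal RNA (others 2.48 to 24.2), and 14.9 CPM in the Bmal1-/- library (others 9.31 to 16.8).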
